A study of Mus musculus with 4 samples.

Results

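The growth factor receptor Met, the receptors Erbb2 and Erbb3, the receptor inhibitor Errfi1 and the ligands Hgf, Hbegf, Areg, Tgfa, Btc and Ereg were followed through liver regeneration as open chromatin. These 10 genes, of 21897 protein-coding genes in GENCODE vM21 on mm10, were chosen by name and not by a threshold on their values. For each gene, counts in called peaks that touched the gene body or the 2 kb upstream (the gene window) were summed over the nuclei of a library and divided by all counts of those nuclei, scaled to 1000000 counts (CPM). The peaks that touched 1 kb on either side of the start of the gene were also summed alone.

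The data were 4 single-nucleus ATAC libraries, 1 each for hepatocytes from undamaged liver (PHx 0 h) and from regenerating livers taken 48, 72 and 96 h after surgery. The surgery, partial hepatectomy (PHx), removes most of the liver and sets off its regrowth. ATAC marks open chromatin by the cuts of a transposase and does not measure RNA. All mice were adult male C57BL/6J animals on normal diet, labelled as 10 to 12 weeks old, with no transgene or drug named, and every liver was perfused with collagenase. The 0 and 48 h nuclei each came from 1 hepatocyte preparation. With 1 library per time, a difference between times cannot be told apart from a difference between libraries, so no p-value is given, and the intervals in parentheses are exact 95% Poisson intervals on fragments (2 counts each), which cover counting error only. Ratios to 0 h carry exact binomial intervals of the same kind.

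The MET receptor binds hepatocyte growth factor, the product of Hgf, which in liver is made mainly by nonparenchymal cells such as stellate and endothelial cells. The ErbB receptors are tyrosine kinases that pair with one another, among them the EGF receptor, ERBB2, which has no known ligand of its own, and ERBB3, whose own kinase is weak and which signals through its partner. EGF-type ligands are made as membrane-anchored precursors and released by proteases, both receptor systems feed the RAS-MAP kinase and PI3 kinase pathways, and both are known as drivers of hepatocyte proliferation after hepatectomy.

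The libraries held 3224 to 4256 nuclei with at least 1000 counts, with 136582768, 62000846, 24724883 and 14935507 counts at 0, 48, 72 and 96 h. Peaks were called in each library separately, and their number ranged from 77580 at 96 h to 164113 at 72 h. The covered peak length of the median gene was 1.11, 0.904 and 0.466 times that at 0 h in the 48, 72 and 96 h libraries, so levels are given here with their covered length. The 10 hepatocyte markers summed to between 4009.7 and 5719.1 CPM and none lacked a peak. The 10 endothelial markers summed to between 263.5 and 511.6 CPM, and 3 to 6 of the 8 Kupffer and myeloid markers lacked a peak, depending on the library. Any pair of libraries shared 27 to 60 nucleus barcodes.

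Promoter sequences in RefSeq (GRCm38.p6) were matched by symbol for 7 of the 10 genes: Met, Erbb2, Errfi1, Hgf, Areg, Tgfa and Btc. Those of Areg, Errfi1 and Met are printed here, each 300 bases long from 250 before to 50 from the annotated start on, with AP-1, CRE and TATA box matches in capitals. The first 2 are shown because their start peaks had the highest ratios to 0 h at 96 h, and the third as the receptor of the set with the most peaks.
Areg: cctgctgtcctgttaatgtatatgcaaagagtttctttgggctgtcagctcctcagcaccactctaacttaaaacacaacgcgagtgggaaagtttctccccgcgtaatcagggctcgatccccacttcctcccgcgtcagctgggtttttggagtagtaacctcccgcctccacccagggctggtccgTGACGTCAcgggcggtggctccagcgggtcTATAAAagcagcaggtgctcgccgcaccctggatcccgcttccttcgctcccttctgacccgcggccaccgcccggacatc
Errfi1: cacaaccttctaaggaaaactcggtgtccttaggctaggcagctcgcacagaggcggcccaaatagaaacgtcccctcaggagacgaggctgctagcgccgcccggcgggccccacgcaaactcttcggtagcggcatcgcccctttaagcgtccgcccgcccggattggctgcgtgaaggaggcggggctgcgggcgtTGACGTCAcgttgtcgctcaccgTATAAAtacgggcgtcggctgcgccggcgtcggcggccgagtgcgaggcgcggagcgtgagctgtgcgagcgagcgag
Met: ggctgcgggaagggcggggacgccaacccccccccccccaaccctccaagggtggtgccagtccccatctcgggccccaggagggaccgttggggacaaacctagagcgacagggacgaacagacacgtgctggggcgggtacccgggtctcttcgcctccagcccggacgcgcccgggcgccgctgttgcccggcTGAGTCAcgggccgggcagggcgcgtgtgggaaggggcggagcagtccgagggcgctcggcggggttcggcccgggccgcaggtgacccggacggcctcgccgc

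These are chr5:91139349-91139648 for Areg, chr4:150854820-150855119 for Errfi1 and chr6:17463707-17464006 for Met, all on the plus strand. Each motif was searched on both strands. The AP-1 motif was spelled TGANTCA, and the cyclic AMP response element, or CRE, was spelled TGACGTCA in full. The TATA box was spelled TATAAA where it was searched. The CCAAT box is named by its letters, and the GC box was searched as GGGCGG throughout. In Areg the CRE began 61 bases and the TATA box 31 bases before the start. In Errfi1 they began 51 and 28 bases before the second of the RefSeq starts, which lies 1151 bases past the start in GENCODE; the entry for the first start held none of the 5 motifs. Of all 32851 promoter entries, 1.79% held the CRE, 13.6% the TATA box and 0.17% both. In Met an AP-1 match began 54 bases before the start, a motif that 7.81% of entries held, beside 3 GC boxes, which 35.7% of entries held. Areg also held 2 GC boxes and Errfi1 a CCAAT box and 3 GC boxes, of which those 97 and 93 bases before the start overlap each other; no other matches in the 3 promoters overlap. Tgfa held 2 GC boxes, Btc held none of the 5 motifs, and Erbb2 and Hgf held CCAAT boxes, as did 37.4% of entries. A match is a run of letters and no measure of binding. All 300 bases of the 3 printed promoters lay inside a called peak in every library.

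Accessibility of the set stayed within a 2-fold limit of 0 h, taken as a log2 ratio of 1 after adding 1 CPM, for each gene tested. Of the 10 genes, 7 passed the filter of a mean of 5 CPM over the libraries (Met, Erbb3, Errfi1, Hbegf, Areg, Tgfa and Btc), and Hgf, Erbb2 and Ereg did not. In the gene window, 0 of the 7 were at least 2-fold above 0 h at 48, 72 and 96 h, where 5.36%, 10.1% and 5.07% of the 15459 genes tested were, and 0 of the 7 were at least 2-fold below, where 1.86%, 5.89% and 8.73% of all genes were. At the start of the gene, 0 of the 7 were called either way, against 4.75%, 7.1% and 6.14% above and 2.54%, 7.93% and 9.84% below among 12840 genes. With 7 genes, shares of this size are fewer than 1 gene at each time. The median log2 ratio of the 7 genes in the window was 0.07, 0.00 and 0.35 at 48, 72 and 96 h, beside -0.03, -0.01 and 0.08 over all genes tested. At the start of the gene it was 0.11, -0.04 and 0.39, beside -0.19, -0.12 and 0.18.

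**Figure D1:**
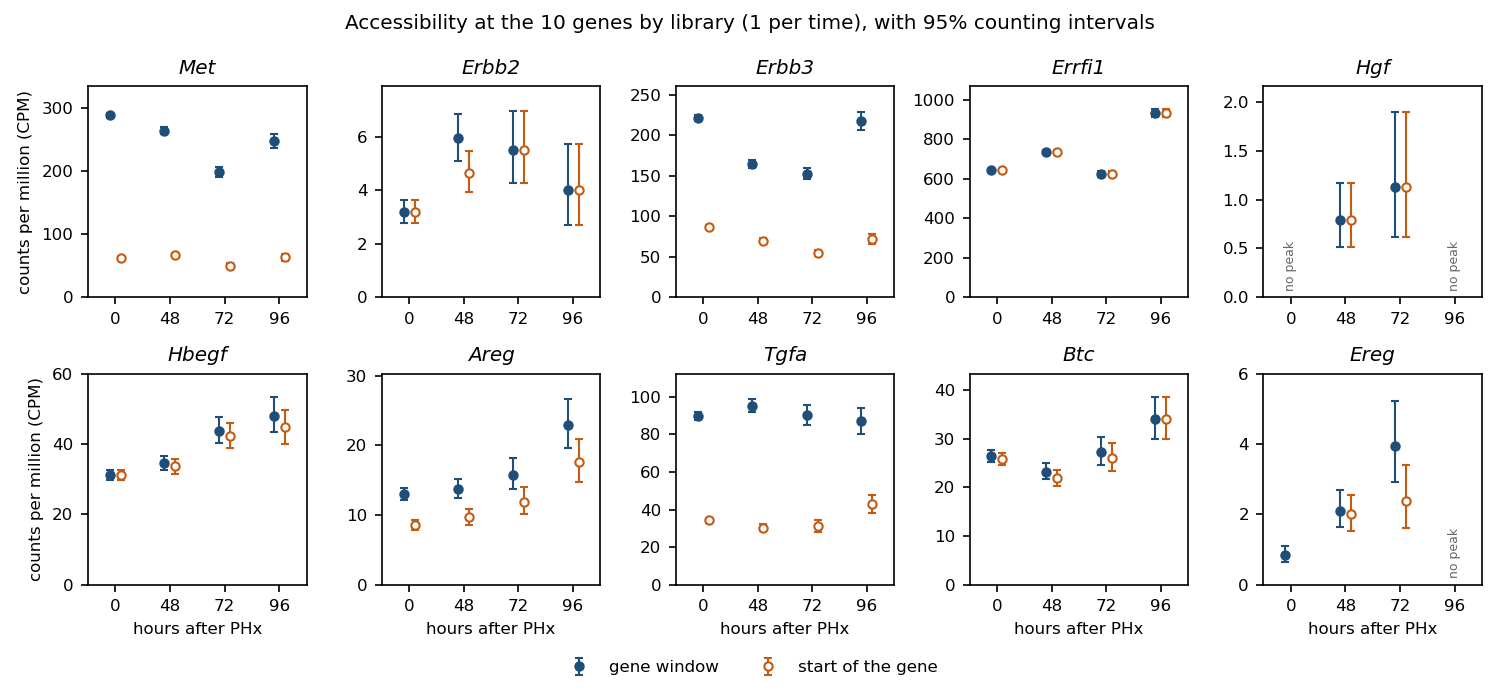
Each panel plots 1 gene, with hours after PHx on the x axis and CPM from 0 on the y axis; filled points are the gene window, open points the peaks at the start of the gene, and bars the 95% Poisson counting interval of the 1 library. In the gene window Errfi1, Hbegf, Areg and Btc stood highest at 96 h and Met, Erbb3 and Errfi1 lowest at 72 h. Hgf and Ereg had no peak in some libraries.

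Met, on chromosome 6 from 17463800 to 17573980, encodes the hepatocyte growth factor receptor. Its window stood, in the order of the times, at 287.4 CPM (283.4 to 291.4), 263.2 (257.5 to 268.9), 197.3 (189.6 to 205.3) and 247.0 (235.9 to 258.5). Of the protein-coding genes with a count in any library, 96.3% to 97.7% were lower in the same library, by sums not scaled for length. The level was thus lowest at 72 h, at 0.687 times 0 h (0.658 to 0.716), and no other library overlapped it. The covered length went from 49723 bp in 34 peaks at 0 h to 45548, 26901 and 14900 bp in 32, 27 and 21 peaks, so at 96 h Met kept 0.859 times its level in 0.3 times its covered length.

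The Met peaks merged over libraries into 34 regions, of which 1 held the start, 8 touched an exon and 25 lay within introns. Only 14 of the 34 had a peak in every library, and these carried 89.9%, 91.9%, 96.5% and 100% of the counts of the window. Summed over those 14 regions the level was 258.4, 241.8, 190.4 and 247.0 CPM, with intervals of 254.6 to 262.2 at 0 h and 235.9 to 258.5 at 96 h that overlap. The other 20 regions never exceeded 5.11 CPM each, and none of them was called at 96 h. The level in the shared regions was thus lowest at 72 h too, but their covered length went from 37447 bp at 0 h to 24680 bp there, and per kb of covered length the log2 ratio of the window at 72 h turned from -0.54 to 0.34, or to 0.17 with the median of all genes set to 0. At 96 h it turned from -0.22 to 1.5, or 0.26.

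Within Met, the peak at the start stood at 61.5, 67.0, 49.2 and 62.7 CPM in 4787, 6917, 4052 and 2049 bp, and its share of the window was 21.4%, 25.4%, 24.9% and 25.4%. The 48 h peak also took in a stretch that was a separate peak of 13.2 CPM at 0 h. Over the whole merged region at the start the levels were 74.8, 67.0, 56.8 and 86.4 CPM, so there 48 h was below 0 h. The 96 h start peak was 2049 bp long and lay inside the 4787 bp peak of 0 h, yet held 1.02 times its level (0.924 to 1.12). The strongest regions inside the gene at 0 h were centred 28203, 77273, 22862 and 105459 bases past the start, all touching an exon but the last, which lay within an intron. The first stood at 27.0, 21.9, 18.8 and 29.1 CPM, the second at 26.7, 24.0, 21.5 and 26.7, and the last at 23.0, 21.8, 15.9 and 21.6, each lowest at 72 h, as the whole window was. The region at 22862 bases stood at 25.3, 23.3, 14.9 and 14.6 CPM in 4279, 4669, 2853 and 1307 bp, so it was low at both 72 and 96 h.

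Peaks of nearly equal length were also compared alone. In Met, 14 peaks at 48 h had a counterpart at 0 h within 10% of its length, with none at 72 or 96 h. The intervals of 10 of these 14 ratios held or touched 1. The other 4 were the peak 14628 bases past the start, at 1.35 times 0 h (1.18 to 1.54), that 102020 bases past it, at 1.28 (1.05 to 1.57), that 28156 bases past it, at 0.808 (0.739 to 0.883), and that 77326 bases past it, at 0.899 (0.825 to 0.98). Over all such regions of the genome at 48 h the median log2 ratio was -0.04, with quartiles of -0.25 and 0.17.

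**Figure D2:**
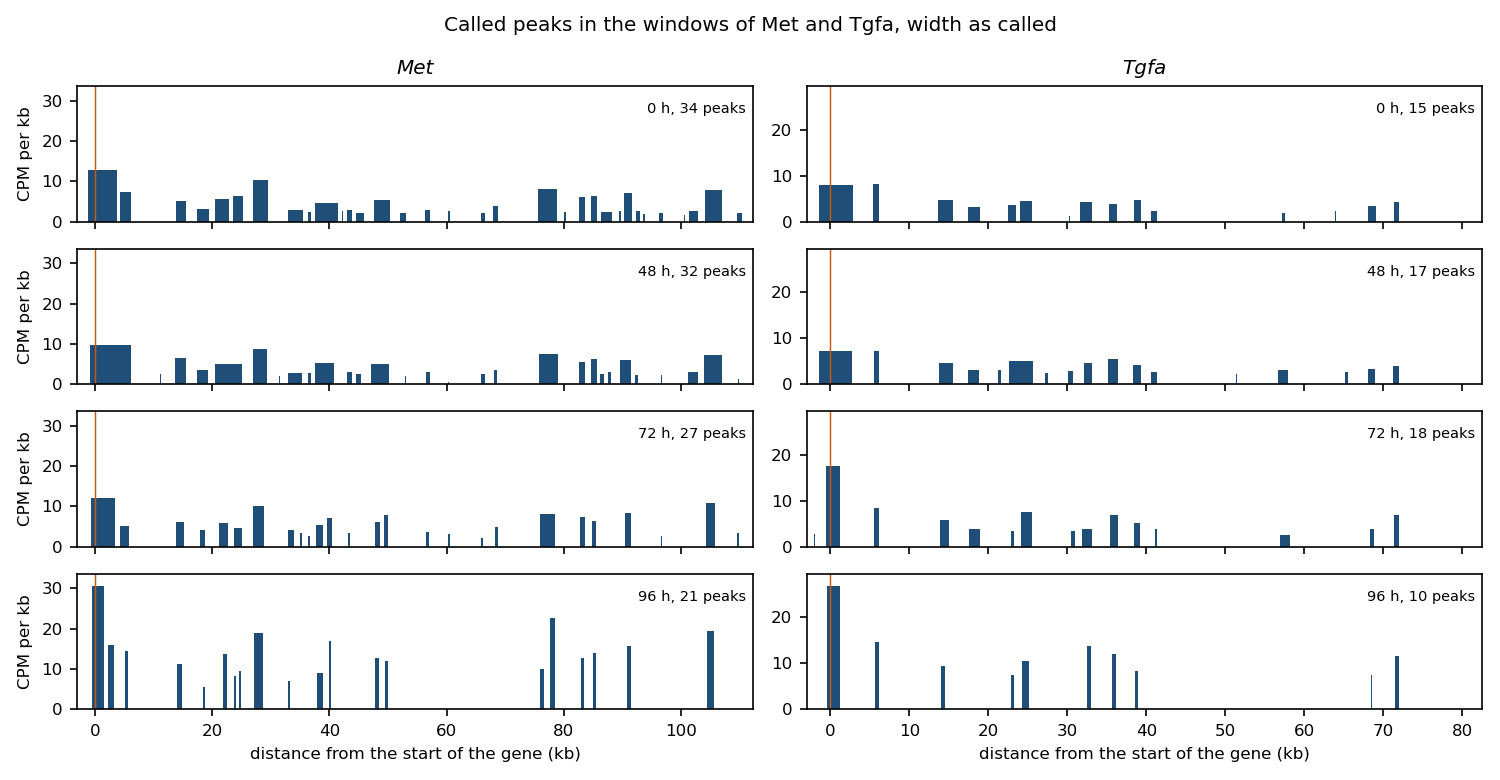
The x axis is the distance from the start of the gene in kb (orange line) and the y axis CPM per kb of peak; each bar is 1 called peak, drawn at its called width, with 1 row per library. In both genes the 96 h peaks were narrower, fewer and higher per kb than those at 0 h, at largely the same positions.

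Erbb2, on chromosome 11 from 98412470 to 98437716, encodes the ErbB partner without a known ligand, and was nearly closed. Its window stood at 3.18 CPM (2.77 to 3.63), 5.94 (5.11 to 6.86), 5.50 (4.27 to 6.97) and 4.02 (2.71 to 5.73) at 0, 48, 72 and 96 h. Only 11.8% to 14.2% of genes with a count in any library were lower in the same library. The 48 and 72 h values lay above the 0 h interval and the 96 h interval overlapped it, but the gene did not reach the filter and the 48 h value included 2 intronic peaks called in that library alone. At the start alone the levels were 3.18, 4.65, 5.50 and 4.02 CPM in 933, 1215, 1154 and 583 bp.

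Erbb3, on chromosome 10 from 128567523 to 128589652 on the minus strand, encodes the receptor that signals through its partners. Its window stood at 220.9 CPM (217.4 to 224.5), 164.2 (159.7 to 168.8), 152.3 (145.5 to 159.4) and 217.2 (206.8 to 228.0), lower at 48 and 72 h than at 0 and 96 h with intervals apart. Without peaks that hold the start of another protein-coding gene its log2 ratios were -0.03, -0.32 and 0.07, where the whole window gave -0.43, -0.53 and -0.02. The start peak held only 33.0% to 42.4% of these counts, since the window includes a peak at the far end of the gene that also holds the start of the neighbouring gene Pa2g4 and stood at 134.7, 79.7, 83.3 and 126.9 CPM. That peak was 17452 bp long at 0 h, reaching over most of the gene body, and 7047, 5519 and 3319 bp in the later libraries, so unlike stretches are compared, and leaving it out also leaves out most of the gene body at 0 h but not later. The Erbb3 start peak itself stood at 86.2 CPM (84.0 to 88.4), 69.6 (66.7 to 72.6), 54.3 (50.3 to 58.6) and 71.6 (65.7 to 78.0). It was thus below 0 h at every time, and 72 h was the lowest here too. Per kb of covered length, however, the log2 ratio of the start at 72 h turned from -0.66 to 0.24, or 0.09 with the median of all genes set to 0, and that of the window from -0.53 to 0.43 or 0.26. At 48 h the ratio of the window went from -0.43 to -0.08 per kb, and turned to 0.13 with the median set to 0. At 96 h the ratio of the start turned from -0.26 to 0.82 per kb but was -0.19 with the median set to 0. The 48 h start peak was 8306 bp against 8387 bp at 0 h, and at this nearly equal length its ratio was 0.808 (0.769 to 0.849). At 72 and 96 h it was 0.63 and 0.831 in shorter peaks of 4478 and 3944 bp that lay inside the 0 h peak.

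Errfi1, on chromosome 4 from 150853919 to 150868892, encodes a cytoplasmic inhibitor of ErbB kinases that is itself induced by their signalling. It was the most open gene of the set, at 642.9 CPM (636.9 to 649.0), 734.6 (725.1 to 744.2), 625.6 (611.8 to 639.7) and 934.7 (912.9 to 956.9). Of genes with a count in any library, 99.5% to 99.9% were lower in the same library. A single broad peak covered the gene and ran past its end, 27546 bp long at both 0 and 48 h but 25114 and then 22808 bp in the later libraries. At the equal length of 48 h its ratio to 0 h was 1.14 (1.12 to 1.16). At 96 h it held 1.45 times the level of 0 h (1.41 to 1.48) in a shorter peak inside that of 0 h. Per kb of covered length with the median of all genes set to 0, however, the log2 ratio at 96 h turned from 0.54 to -0.47 in the window and was -0.24 at the start. At least 1 count in this peak was found in 88.0%, 83.0%, 65.5% and 70.4% of nuclei, lower in the shallower 72 and 96 h libraries. The peak also holds the start of the antisense gene 1700045H11Rik, and ATAC counts have no strand.

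The ligand Hgf, on chromosome 5 from 16553495 to 16620152, had no called peak in its window at 0 h or 96 h. At 48 h it had 1 peak of 390 bp at its start with 49 counts, 0.79 CPM (0.509 to 1.17), and at 72 h 1 of 480 bp with 28 counts, 1.13 CPM (0.619 to 1.90). No ratio was formed, because the files hold counts inside called peaks alone and give no value where none was called. The 48 and 72 h libraries also had the most called peaks in all. The 10 stellate and mesenchymal markers summed to 81.2, 135.2, 182.5 and 139.9 CPM in time order, with 3, 1, 1 and 4 of them without a peak (Dcn in 3 libraries), and their part in the Hgf calls was not tested.

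Hbegf, on chromosome 18 from 36504927 to 36515805 on the minus strand, encodes heparin-binding EGF-like growth factor, a ligand of the EGF receptor and of ERBB4. Its window stood at 31.1 CPM (29.8 to 32.5), 34.6 (32.5 to 36.7), 43.8 (40.2 to 47.7) and 48.1 (43.3 to 53.4), above 0 h at each time, with the 0 and 48 h intervals touching and those of 72 and 96 h apart from both. Nearly all of it lay at the start, where the peaks were 2858, 3075, 3112 and 1150 bp long. The 48 and 72 h start peaks were within 10% of the 0 h length, and their ratios to 0 h were 1.08 (1.0 to 1.16) and 1.36 (1.23 to 1.5). The median log2 ratio over all regions matched in this way was 0.37 at 72 h, and that of Hbegf was 0.44. Per kb of covered length the log2 ratio of the window at 48 h turned from 0.15 to -0.17, but was 0.04 with the median of all genes set to 0. At 96 h the peak lay inside that of 0 h and held 1.44 times its level (1.28 to 1.61) in 0.402 times its length.

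Areg, on chromosome 5 from 91139599 to 91148432, encodes amphiregulin, a ligand of the EGF receptor. Its window stood at 13.0 CPM (12.2 to 13.9), 13.7 (12.5 to 15.1), 15.8 (13.7 to 18.2) and 22.9 (19.6 to 26.6) at 0, 48, 72 and 96 h. The 96 h library thus stood above all others, at 1.76 times 0 h (1.48 to 2.07), and 89.8% of genes tested had a lower ratio. The difference lay at the start, in the peak that holds the printed CRE and TATA box, which stood at 8.58 (7.90 to 9.30), 9.68 (8.61 to 10.8), 11.9 (10.1 to 14.0) and 17.6 (14.7 to 20.9) CPM in 1092, 1101, 910 and 687 bp. At 48 h, at nearly equal length, the ratio was 1.13 with an interval that held 1 (0.978 to 1.30). At 96 h it was 2.05 (1.69 to 2.48) in a shorter peak inside that of 0 h, and it missed the 2-fold limit only on the scale of the log2 ratio with 1 CPM added, at 0.96. The intronic peak about 7.7 kb past the start stood at 4.44, 4.05, 3.88 and 5.29 CPM, with no such difference.

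Tgfa, on chromosome 6 from 86195223 to 86275719, encodes transforming growth factor alpha, an EGF receptor ligand that hepatocytes themselves make. It was the most even gene of the set, at 89.9 CPM (87.6 to 92.2), 95.2 (91.8 to 98.7), 90.2 (84.9 to 95.6) and 87.1 (80.5 to 94.1), and the intervals of all 4 libraries overlapped. The level at 96 h was held in 5670 bp of peaks against 17872 bp at 0 h. Of its 21 regions, 18 were intronic and 9 had a peak in every library. Summed over those 9, the level was 82.0, 80.3, 78.6 and 87.1 CPM. Its start peak stood at 34.2, 30.3, 31.1 and 42.7 CPM in 4327, 4242, 1778 and 1593 bp, the 96 h peak lying inside that of 0 h with 1.25 times its level (1.11 to 1.40). The log2 ratio of the start at 72 h turned from -0.13 to 1.13 per kb of covered length, or 0.98 with the median of all genes set to 0. Intronic peaks of nearly equal length 35872 and 71684 bases past the start were at 1.70 (1.31 to 2.18) and 1.56 (1.15 to 2.08) times 0 h at 72 h, another at 38820 bases was at 1.01 (0.742 to 1.36), and 5% of all regions matched at 72 h had a log2 ratio above 0.99.

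Btc, on chromosome 5 from 91357261 to 91402994 on the minus strand, encodes betacellulin, a ligand of the EGF receptor and of ERBB4. Its window stood at 26.4 CPM (25.2 to 27.7), 23.2 (21.6 to 25), 27.3 (24.5 to 30.4) and 34.0 (30 to 38.5). It was lower at 48 h than at 0 h and higher at 96 h, with intervals apart from 0 h in both. Per kb of covered length the log2 ratio of the window at 48 h turned from -0.18 to 0.07, and with the median of all genes also set to 0 it was 0.28 at 48 h and turned from 0.35 to -0.07 at 96 h. At the start, where 93.9% to 100% of the counts lay, the 48 h peak was shorter than that of 0 h (1736 against 2353 bp) and stood at 0.847 times its level (0.774 to 0.926). The 96 h peak was the shortest, at 1515 bp, lay inside that of 0 h and stood at 1.32 times its level (1.15 to 1.51).

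Ereg, on chromosome 5 from 91074622 to 91093646 and near Areg, encodes epiregulin, a further EGF receptor ligand, and was close to the limit of what was called. At 0 h it had no peak at its start and 1 intronic peak of 336 bp, 0.842 CPM (0.639 to 1.09). At 48 h a start peak of 759 bp held 2.0 CPM (1.53 to 2.56) and at 72 h one of 557 bp held 2.39 CPM (1.60 to 3.42), beside the intronic peak at 0.113 and 1.58 CPM. The window at 72 h summed to 3.96 CPM (2.93 to 5.24), 4.71 times 0 h (3.15 to 7.01), but over 958 against 336 bp and below the filter. At 96 h no peak was called in the window. The start peak also holds the start of the antisense gene Gm19610. Like Hgf, Ereg was thus called at its start in the 48 and 72 h libraries alone, which had the most called peaks in all. The share of all genes called in this way was not counted.

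**Figure D3:**
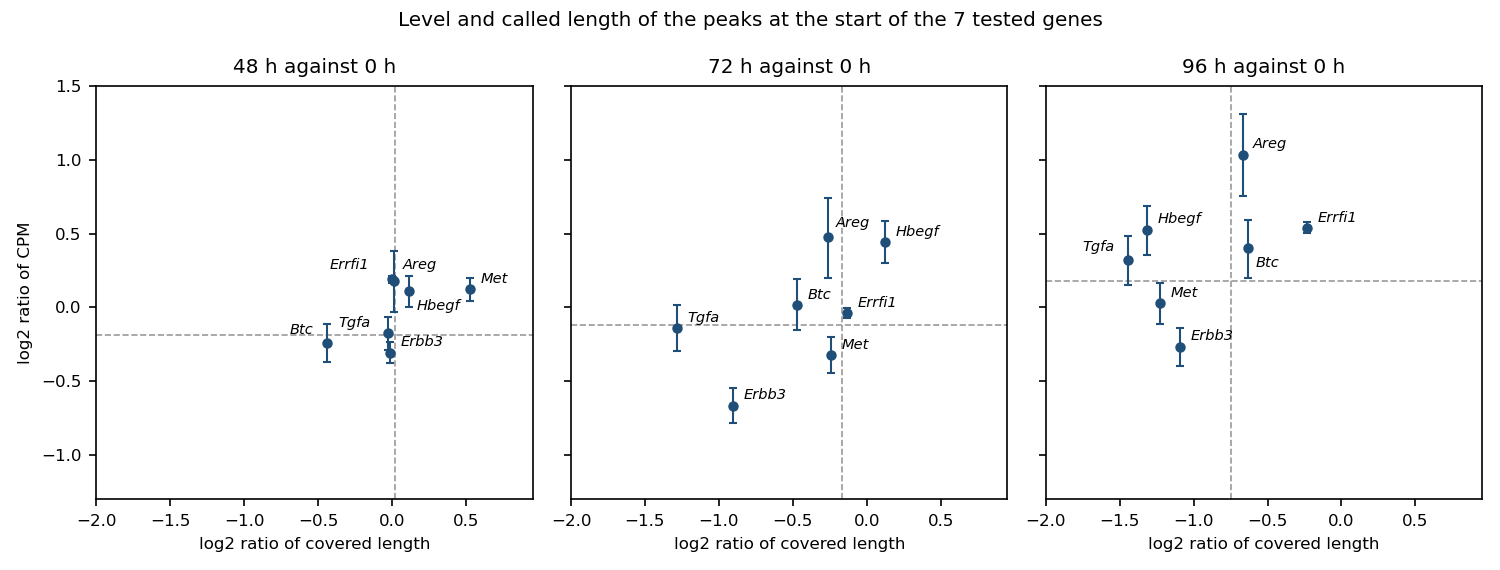
For the peaks at the start of the 7 genes that passed the filter, the x axis is the log2 ratio of covered length and the y axis the log2 ratio of CPM to 0 h, with 95% counting intervals; dashed lines mark the medians over all genes tested. At 96 h every peak was shorter than at 0 h, and Areg, Errfi1, Hbegf, Btc and Tgfa lay above the median of all genes while Met and Erbb3 lay below it.

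The start peaks were then set side by side. At 96 h those of Areg, Errfi1, Hbegf, Btc and Tgfa held 2.05, 1.45, 1.44, 1.32 and 1.25 times their level at 0 h, each with an interval above 1, all in shorter peaks lying inside those of 0 h. Among the 12840 genes tested at the start, 8007 stood above 0 h at 96 h, and the upper quartile of the log2 ratio was 0.52. On that scale Hbegf, Btc and Tgfa lay below this quartile, at 0.51, 0.39 and 0.31, and Errfi1 and Areg above it, at 0.54 and 0.96. Of the receptors, Met held 1.02 times and Erbb3 0.831 times, in peaks likewise shorter and inside, and Erbb2, below the filter, 1.26 times with an interval that held 1 (0.833 to 1.86). Hgf and Ereg had no peak at 96 h. In the whole window Tgfa stood at 0.969 and Erbb3 at 0.983 times 0 h. Receptors and ligands thus did not separate in the window, nor at the start, where Erbb2 and Tgfa stood at 1.26 and 1.25. At 72 h Erbb2, again below the filter, was at 1.73 times 0 h (1.3 to 2.28), Areg and Hbegf were above 0 h at 1.39 and 1.36, Btc stood at 1.01 and Tgfa at 0.908 with intervals that held 1, and Errfi1, Met and Erbb3 were below at 0.973, 0.799 and 0.63.

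Per kb of called length, the order of the start peaks was led by Errfi1 in every library, at 23.3, 26.7, 24.9 and 39.8 CPM per kb. At 0 h Met followed with 12.9, then Btc and Hbegf with 10.9 each and Erbb3 with 10.3, which did not differ beyond their counting intervals, then Tgfa with 7.90 and Areg with 7.86, which did not either, and last Erbb2 with 3.41. At 96 h Hbegf (38.9) did not differ from Errfi1 beyond the interval, and Met, Tgfa, Areg, Btc and Erbb3 followed with 30.6, 26.8, 25.6, 22.5 and 18.2, each overlapping or touching its neighbour. Erbb2 was last at 96 h too, with 6.89. These values rise as peaks are called narrower and were compared within a library.

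The genes were also compared between classes of nuclei, since ligand and receptor are known to be made by different liver cells. Clustering on regions open in every library, without those of the 10 genes, gave 8 clusters, of which 6 were hepatocyte-like by the marker list and 2, with low hepatocyte markers, are called hepatocyte-low here. One of these had 7 of 10 endothelial markers and 1 of 6 stellate markers at least 2-fold up and 597 nuclei, the other had 1 endothelial, 1 Kupffer and 1 cholangiocyte marker up and 283 nuclei; both were of low depth and stay unnamed. Most hepatocyte-like clusters followed the libraries, with 3104 of 3186 nuclei of one from 96 h, 2857 of 2909 of another from 72 h, 2764 of 2808 of the next from 48 h, and 1921 of 2033 and 1750 of 1760 of a further pair from 0 h. The remaining hepatocyte-like cluster, of 1773 nuclei, was mixed, with 783 from 48 h, 967 from 72 h and 21 from 96 h. This class was thus made up of largely different clusters at each time, but 48 and 72 h shared the mixed cluster. At 0 h the median was 3416 counts in a hepatocyte-low and 28550.5 in a hepatocyte-like nucleus. By library, from 0 to 96 h, the hepatocyte-low share of nuclei was 7.52% (6.72 to 8.38), 5.52% (4.83 to 6.29), 6.70% (5.96 to 7.49) and 2.51% (2.0 to 3.11; exact binomial intervals), and the share of counts was 1.24%, 1.21%, 2.26% and 0.762%.

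Met stood at 289.9 CPM (285.8 to 294.0) in hepatocyte-like and 89.5 (70.5 to 112.0) in hepatocyte-low nuclei at 0 h, and was lower in the latter in all 4 libraries with intervals apart. Errfi1 behaved alike, with 648.7 CPM (642.7 to 654.8) against 182.6 (154.9 to 213.7) at 0 h and 940.6 (918.7 to 963.0) against 158.2 (72.3 to 300.3) at 96 h. Both genes were thus most open in the nuclei that carry hepatocyte markers, by CPM within each class. Btc and Areg were also lower in hepatocyte-low nuclei in all 4 libraries, for Btc with intervals apart in 2 and for Areg in none.

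Erbb3 showed no such split. It stood at 221.2 and 198.5 CPM at 0 h and at 217.1 and 228.5 CPM at 96 h in hepatocyte-like and hepatocyte-low nuclei, with overlapping intervals in every library. For Erbb3 this sum again includes the peak with the start of Pa2g4. Tgfa was lower in hepatocyte-low nuclei in 3 of 4 libraries, with intervals apart in 1, and its clusters differed. In the cluster of 283 nuclei it was lower than in hepatocyte-like nuclei in all 4 libraries with intervals apart in 2, at 55.2 (35.7 to 81.5) against 90.1 CPM at 0 h and 31.5 (12.7 to 64.9) against 95.6 at 48 h, from 50 and 14 counts. In the cluster of 597 nuclei it was higher in 3 of 4, with overlapping intervals in each.

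Hbegf, Erbb2 and Hgf leaned the other way. Hbegf stood at 30.9 CPM (29.6 to 32.3) against 46.5 (33.2 to 63.5) at 0 h and at 34.2 (32.2 to 36.4) against 62.5 (39.8 to 93.3) at 48 h, and was higher in hepatocyte-low nuclei in all 4 libraries with intervals apart in 2. Erbb2 stood at 2.99 CPM (2.59 to 3.43) against 18.3 (10.3 to 29.9) at 0 h, again higher in 4 of 4 but apart in 1. Of the 31 hepatocyte-low counts at 0 h, 28 came from the cluster of 597 nuclei, at 35.3 CPM (19.3 to 59.2). The cluster of 283 nuclei stood at 3.31 (0.238 to 14.2), near the hepatocyte-like level. At 48, 72 and 96 h the hepatocyte-low values of Erbb2 rest on 6, 5 and 1 counts. Hgf stood at 0.62 CPM (0.374 to 0.969) against 14.6 (5.07 to 32.9) at 48 h, from 38 and 11 counts, and at 0.952 (0.484 to 1.68) against 8.95 (1.49 to 28.7) at 72 h. So 22.4% of the 48 h counts of Hgf came from nuclei that gave 1.21% of all counts. Leaving the hepatocyte-low nuclei out moved no ratio of the 7 genes to 0 h by more than 0.02 on the log2 scale.

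**Figure D4:**
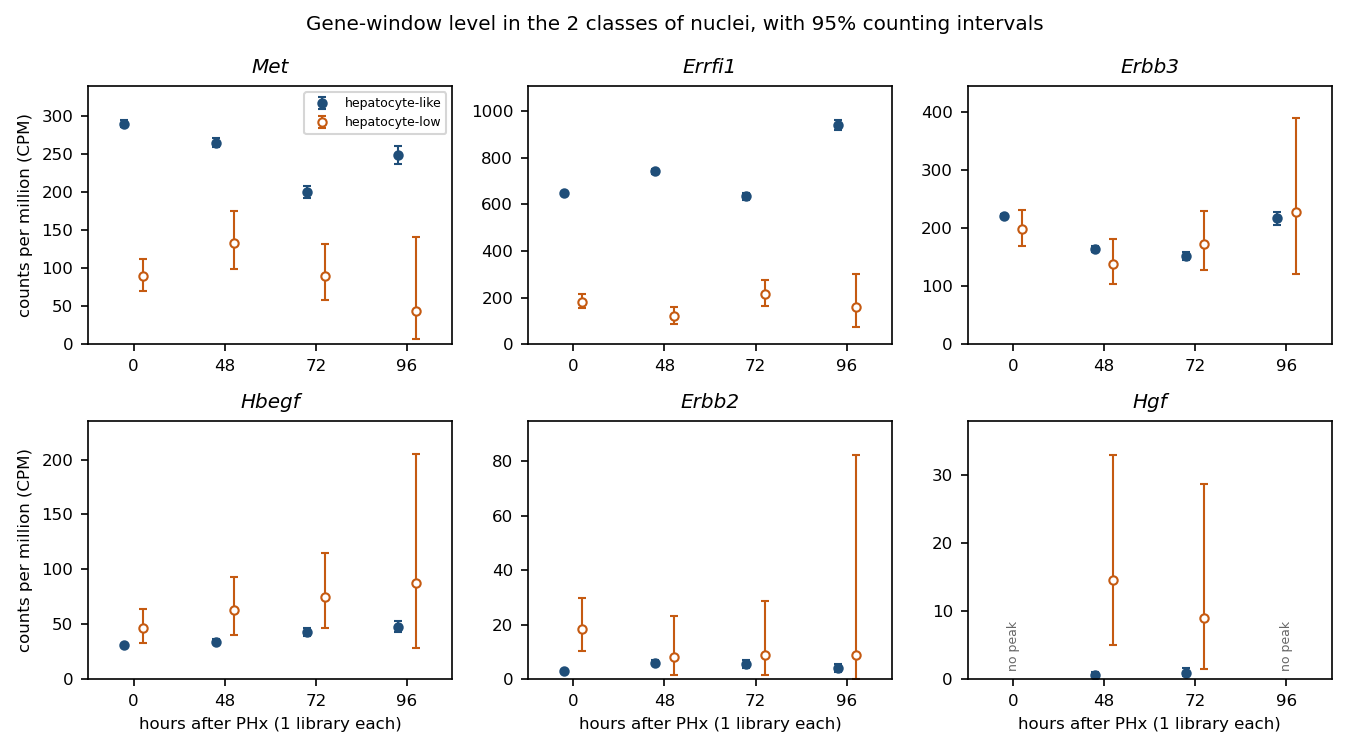
Each panel plots the gene-window level in CPM (y axis, from 0) by hours after PHx for hepatocyte-like (filled) and hepatocyte-low nuclei (open), with 95% Poisson counting intervals. Met and Errfi1 were lower in hepatocyte-low nuclei in all 4 libraries, Erbb3 overlapped, and Hbegf, Erbb2 and Hgf were higher where a peak was called.

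Other genes of these pathways were read from a list of 49, of which 48 passed the filter. At 48, 72 and 96 h, 2, 4 and 2 of them were at least 2-fold above 0 h in the window and 1, 4 and 4 at least 2-fold below. Among all genes tested the shares were 5.36%, 10.1% and 5.07% above and 1.86%, 5.89% and 8.73% below, and the median log2 ratio of the list was -0.10, -0.25 and -0.08, beside -0.03, -0.01 and 0.08 over all genes. At the start of the gene, 45 of the list passed the filter, and 4, 6 and 3 were at least 2-fold above, beside 4.75%, 7.1% and 6.14% of all genes, and 2, 5 and 2 at least 2-fold below, beside 2.54%, 7.93% and 9.84%. The EGF receptor gene Egfr, whose product pairs with those of Erbb2 and Erbb3, differed most: it stood at 373.8, 2178.6, 1252.1 and 1487.7 CPM in 85276, 171764, 166424 and 119608 bp, so that level and called length were both higher after PHx. Spry2, an inhibitor of receptor tyrosine kinase signalling, stood at 14.1, 24.5, 41.0 and 44.9 CPM in 3372, 4291, 4170 and 3267 bp, and its paralogue Spry4 at 112.1, 48.8, 45.8 and 56.7 CPM in 20090, 7158, 5361 and 3390 bp. Spry4 was thus lower after PHx in its sum and also in its covered length, but not per kb, at 5.58, 6.82, 8.54 and 16.7 CPM. On the MET side, Spint1, an inhibitor of the proteases that activate hepatocyte growth factor, stood at 3.20, 9.68, 11.6 and 2.75 CPM in 1033, 2372, 2713 and 395 bp, and St14, the protease matriptase, at 7.76, 16.5, 19.1 and 14.1 CPM in 2159, 3934, 3358 and 1496 bp. Spint2, which encodes a related inhibitor and was added after its values were seen, was more open. It stood at 59.4, 36.0, 25.5 and 33.1 CPM in 11251, 6822, 3961 and 2224 bp, the other way from Spint1 at 48 and 72 h. Per kb of covered length Spint2 stood at 5.28, 5.27, 6.44 and 14.9 CPM and Spint1 at 3.1, 4.08, 4.29 and 6.95. The opposite directions thus lay in the sums. The protease genes Hgfac, Hpn and Plau are named although they stayed short of the limit. At 48, 72 and 96 h the log2 ratios of Hgfac were -0.54, -0.93 and -0.56 and those of Hpn -0.06, -0.7 and -0.4. Those of Plau went the other way, at 0.23, 0.33 and 0.25. Mst1, which encodes macrophage-stimulating protein, a relative of hepatocyte growth factor, stood at 169.3, 145.1, 64.2 and 75.2 CPM, its covered length going from 19069 to 4676 bp between 0 and 96 h. The kinase gene Map2k2 stood at 181.2 CPM at 0 h and at 72.0 CPM at 96 h, where its covered length was 0.193 times that of 0 h.

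Likeness of pattern was measured for Areg as the Euclidean distance of centred log2 levels over the 4 libraries, among 11470 genes with a mean of at least 20 CPM. The nearest were Lrp11 and Srp9 (0.021 and 0.029). Over only 4 points such patterns are common, and 771 genes lay within 0.25 of Areg.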

How the data were processed

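Each library was deposited as a matrix of whole-number counts per peak and barcode, made by the authors with Cell Ranger ATAC 1.1.0 (file header) on mm10, with alignment and duplicate removal in the same tool; a count is a transposase cut in a peak, and 87.3% to 88.6% of values were even. Peak coordinates and barcode lists were deposited beside it (unit other, no measurement). Peaks were called by library, which lets called length move the counts of a gene.

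Barcodes with at least 1000 counts were kept and no doublet caller was run. Gene windows, starts and the filter are as given in the report; the log2 ratio was taken after adding 1 CPM, and a gene was called at an absolute log2 ratio of 1. Ratios without this addition carry an exact binomial interval. Clusters came from TF-IDF, 30 components and Leiden at a resolution of 0.5 (Python 3.11.15, scipy 1.17.1, scikit-learn 1.9.0, leidenalg 0.10.2); clusters with a mean log2 hepatocyte marker level under -1 relative to all clusters were called hepatocyte-low, a limit set after the clusters were seen. The calculation was tested on simulated counts.

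The 10 genes, the pathway list and the marker lists were chosen with earlier results of these data known. All 10 genes are named; pathway genes past 2-fold in the window are named up to 8, the largest first, and of the 3 genes of widest range, likeness is given for Areg alone, since Ereg and Hgf had no called peak in some libraries. Some genes these rules name are not reported here. Alternatives covered the barcode minimum, deep nuclei, scaling, windows, pseudocount, filter, binarised counts, length, shared regions, classes and cluster resolution.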

Additional observations from a re-analysis of the deposited data

How the results depend on the processing

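With 1 library per time no replicate could be left out, and depth limits the 96 h values most. No paired analysis was possible because each time has 1 library. The count of 0 genes past 2-fold, in either direction, was unchanged under every setting but the following. Without a filter on low values, 2 of 10 genes (Hgf and Ereg) passed the limit above 0 h at 72 h, beside 13.7% of all genes; for Hgf this takes the lack of a called peak at 0 h as 0 and is no measured fold. With binarised counts, the percent of nuclei with a count, which falls with depth per nucleus, 6 of 7 genes were below at 72 h and 5 at 96 h, as were 87.3% and 95.5% of all genes. Per kb of covered length, 6 genes were above at 96 h in the window (70.7% of all genes) and 5 at the start (50.8%), and 1 (Tgfa) at the start at 72 h (4.58%); with the median of all genes also set to 0, a setting added after the data were seen, none was. These settings turned the sign of 17 and 18 of 42 log2 ratios, among them those of Met and Erbb3 at 72 h and Btc at 48 h in the window and, with the median set to 0, Errfi1 and Btc at 96 h. Leaving out peaks that hold the start of another protein-coding gene took the Erbb3 window at 48 h from -0.43 to -0.03. Without the deepest 5% of nuclei, Areg at its start at 96 h passed the limit, so 1 gene was called (6.21% of all genes). At a length tolerance of 20%, 11 peaks were matched at 72 h, with a median log2 ratio of 0.16, against 4 and 0.54 at 10%. A Leiden resolution of 1.0 moved no share of hepatocyte-low nuclei beyond its interval.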
